A study of Rattus norvegicus with 30 samples.

Results

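Myh6, Myh7, Tnnt2, Tnni3, Actc1, Myl4, Myl7, Nppa and Ryr2 are genes of heart muscle, and their signals were described here in whole lungs of young rats, with whole kidneys as the reference tissue. They were chosen as 9 gene symbols, and each was followed through every probe set that the array annotation gives to that symbol alone. This gave 12 probe sets for 8 of the 9 genes, out of 20826 probe sets naming a single gene and 14217 genes on the array. Actc1, the actin of the heart sarcomere, had no probe set of its own: 5 probe sets name it together with the smooth muscle actin Acta2, so no value is given for it.

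The samples were 30 arrays of total RNA from wild-type Sprague-Dawley rats, 15 of lung and 15 of kidney, in 6 groups of 5. The 1 wk groups were 7 days old on a normal diet, and the 5 wk control groups were 35 days old on a normal diet. The 5 wk deficient groups were also 35 days old and had a diet without tryptophan, an essential amino acid, from birth until 4 wk. No group carries a transgene or an altered allele, the organs were taken whole, and the labels say nothing of how much of the great vessels, mediastinal fat or neighbouring muscle was left on a lung. The study compared fast-growing with more slowly growing animals, and asked what earlier growth inhibition does to the changes with age. Arrays of a group correlated at 0.974 or above. All 11 lung epithelial markers were above background (the array's 40th percentile) on all 15 lung arrays. Of 10 measured kidney markers, Lrp2 was above it on all 15 lung arrays, Slc34a1 and Wt1 on 1 each, and the other 7 on none.

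Heart muscle contracts when calcium released through the ryanodine receptor lets myosin heads pull on actin, a step gated by the troponin complex. In rodents this muscle is not confined to the heart, because sleeves of cardiac muscle of atrial type run along the pulmonary veins into the lung. Atrial muscle uses its own myosin light chains and makes natriuretic peptide, whereas the ventricle uses other light chains. Fewer heart muscle cells in a lung and less RNA per such cell cannot be told apart in whole tissue, and RNA of pulmonary vein muscle cannot be told apart from heart tissue left on the lung by these genes alone.

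The promoters of Tnnt2 and Nppa are shown because these 2 genes depart from the other members in what follows, Tnnt2 through its signal in young kidney and Nppa through its large spread between lungs. Each sequence is the RefSeq promoter window on GRCr8, plus strand, from 250 bases before the annotated start to 50 after it. Capitals mark motifs found by a search of both strands.
Tnnt2, chr13:49818873-49819172: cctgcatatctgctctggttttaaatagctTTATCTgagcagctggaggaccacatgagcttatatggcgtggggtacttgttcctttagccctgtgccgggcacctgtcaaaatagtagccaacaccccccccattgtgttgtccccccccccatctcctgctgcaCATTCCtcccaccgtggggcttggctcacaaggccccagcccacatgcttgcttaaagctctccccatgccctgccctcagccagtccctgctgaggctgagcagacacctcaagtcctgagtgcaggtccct
Nppa, chr5:163711934-163712233: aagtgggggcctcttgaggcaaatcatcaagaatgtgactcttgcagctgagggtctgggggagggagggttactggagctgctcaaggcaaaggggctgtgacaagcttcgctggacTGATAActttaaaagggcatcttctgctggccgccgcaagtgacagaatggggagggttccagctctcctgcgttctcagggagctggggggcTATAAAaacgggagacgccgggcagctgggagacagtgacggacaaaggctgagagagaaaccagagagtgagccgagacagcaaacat
In Tnnt2 the capitals are AGATAA, read on the minus strand 220 to 215 bases before the start, and CATTCC, 83 to 78 bases before it. In Nppa they are TGATAA, 132 to 127 bases before the start, and TATAAA, 39 to 34 bases before it. AGATAA and TGATAA are letters that GATA factors can bind, CATTCC is the core letters of TEAD sites, and TATAAA is the TATA box. Among 33469 promoters of this length, AGATAA was present in 11.6%, TGATAA in 9.03%, and CATTCC and TATAAA in 14.2% each. Of the 9 windows, those of Tnni3 and Tnnt2 held AGATAA, that of Nppa TGATAA, those of Myh6 and Tnnt2 CATTCC, and those of Myl4 and Nppa TATAAA. The CArG box, the site of serum response factor, was found in the Actc1 window alone among the 9 and in 1.64% of all promoters. The MEF2 site was found in none of the 9 windows and in 3.29% of all promoters. The windows of Myh6, Myh7, Myl4 and Myl7 lie inside the annotated span of the gene and not at its outer start. For these genes the sequence before the outer start was not searched, so the motif counts do not cover it. These matches are descriptions of letters in a window, not of bound sites.

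Signals are the authors' MAS5 intensities on a linear scale, and a probe set was taken as above background on an array when it reached that array's 40th percentile, which lay between 87.0 and 116. Probe sets differ in how they bind, so each gene is compared with itself across samples and not with another gene. In lung, 7 of the 8 measured genes passed the filter for testing, and Myh7 did not.

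Myh6 encodes the alpha myosin heavy chain, the motor of the atrium and of the adult rodent ventricle (chr15:32388102-32413663 on GRCr8). Its signals in the 1 wk lungs, numbered 1 to 5, were 3464, 1597, 1771, 1160.4 and 1245. In the 5 wk control lungs they were 1927, 1158, 4190.5, 1841 and 1704, and in the deficient lungs 1804, 2546, 2544, 1998 and 1708. All 15 lungs were far above background, the 3 groups overlapped, and lung 1 of the 1 wk group and lung 3 of the control group stood above the rest of their groups. In the 15 kidneys the signal lay between 5.52 and 51.3, below the threshold on every array. The second Myh6 probe set gave weaker signals, and its highest lungs were also 1 wk lung 1 (92.2) and control lung 3 (188).

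Myh7 encodes the beta heavy chain, the slow motor of fetal ventricle and of slow skeletal fibres, and lies next to Myh6 (chr15:32416525-32439851). The probe set with the higher mean signal read 8.26, 38.8, 4.89, 2.57 and 4.52 in the 1 wk lungs and 6.25, 4.87, 7.14, 17.2 and 1.55 in the control lungs. In the deficient lungs it read 17.8, 5.80, 10.3, 116 and 3.38, so that only deficient lung 4 reached the threshold. The second Myh7 probe set stayed between 3.22 and 32.5 in the lungs. In 1 wk lung 1 and control lung 3, which had the highest Myh6 signal of their groups, Myh7 was at background (8.26 and 7.14). The 2 highest Myh7 values came from 1 wk lung 2 and deficient lung 4. A further 2 probe sets name Myh6 and Myh7 together and were not used.

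Myl7 encodes the regulatory light chain of atrial myosin (chr14:84994644-84997173). Its signals were 3153, 1488, 1883, 996 and 1172 in the 1 wk lungs, 2088, 2094, 4831, 2504 and 2129.7 in the control lungs and 1887, 3085, 3667, 3147 and 2239 in the deficient lungs. The highest lung of each group was 1 wk lung 1, control lung 3 and deficient lung 3, and each 5 wk group overlapped the 1 wk group. The kidneys lay between 1.24 and 36.4.

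Myl4 encodes the essential light chain of atrial and embryonic muscle (chr10:89949733-89985308). Its signals were 827, 632, 377, 227 and 424 at 1 wk and 865, 346, 1646, 677 and 405 in the control lungs. In the deficient lungs they were 385, 564, 549.7, 471 and 408, the narrowest of the 3 groups. All kidneys were between 2.75 and 53.4.

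Tnni3 encodes the heart form of troponin I, the inhibitory subunit of the thin filament (chr1:78342571-78346255). It read 1069, 592, 596, 389.9 and 426 in the 1 wk lungs, 506, 582, 1470.1, 546 and 546 in the control lungs and 478, 836, 957, 799 and 658 in the deficient lungs. In the control group, 4 lungs lay within 506 to 582 and lung 3 stood alone above them. The kidneys lay between 4.42 and 54.7.

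Tnnt2 encodes the heart form of troponin T, which ties the troponin complex to tropomyosin (chr13:49819123-49837125). It read 805, 429, 375, 230.0 and 339 in the 1 wk lungs, 412, 281, 1269, 489.6 and 529.5 in the control lungs and 449, 538, 719.6, 500.1 and 424 in the deficient lungs. The order of lungs followed that of Myh6 at the top of the 1 wk and control groups. It was the single member above background in a kidney group: the 1 wk kidneys read 246, 260.0, 247, 382 and 202. The control kidneys read 12.1, 7.98, 4.74, 2.17 and 11.5 and the deficient kidneys 4.50, 6.09, 32.0, 4.24 and 2.82, all below the threshold. The second Tnnt2 probe set was at background everywhere, 2.96 to 38.8 in the lungs and 3.27 to 49.9 in the kidneys. The lung signal and the young kidney signal therefore rest on the same 1 probe set.

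Ryr2 encodes the calcium release channel of the heart's sarcoplasmic reticulum (chr17:63081527-63667141). Its signals were 258, 153, 105, 128 and 149 in the 1 wk lungs, 191, 152, 312, 178 and 172 in the control lungs and 182, 189.6, 219, 153 and 150.0 in the deficient lungs. These are close to the threshold, yet each lung was above every kidney, whose highest value was 88.9. The second Ryr2 probe set stayed below the threshold, at 8.27 to 93.5 in the lungs.

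Nppa encodes atrial natriuretic peptide, a hormone stored in atrial muscle cells (chr5:163712184-163713493). It read 527, 94.2, 500.4, 279 and 39.9 in the 1 wk lungs, 72.3, 101, 3127, 122 and 58.4 in the control lungs and 176, 439.9, 1344, 131 and 251 in the deficient lungs. It reached the threshold in 3 of 5 lungs at 1 wk, 2 of 5 control lungs and 5 of 5 deficient lungs. With signals below the threshold set to it, control lung 3 was at least 30.8 times the median of the other 4 lungs of its group. At 1 wk, lungs 2 and 5 were below the threshold and have only an upper bound. The kidneys lay between 7.52 and 91.0, all below the threshold.

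**Figure D1:**
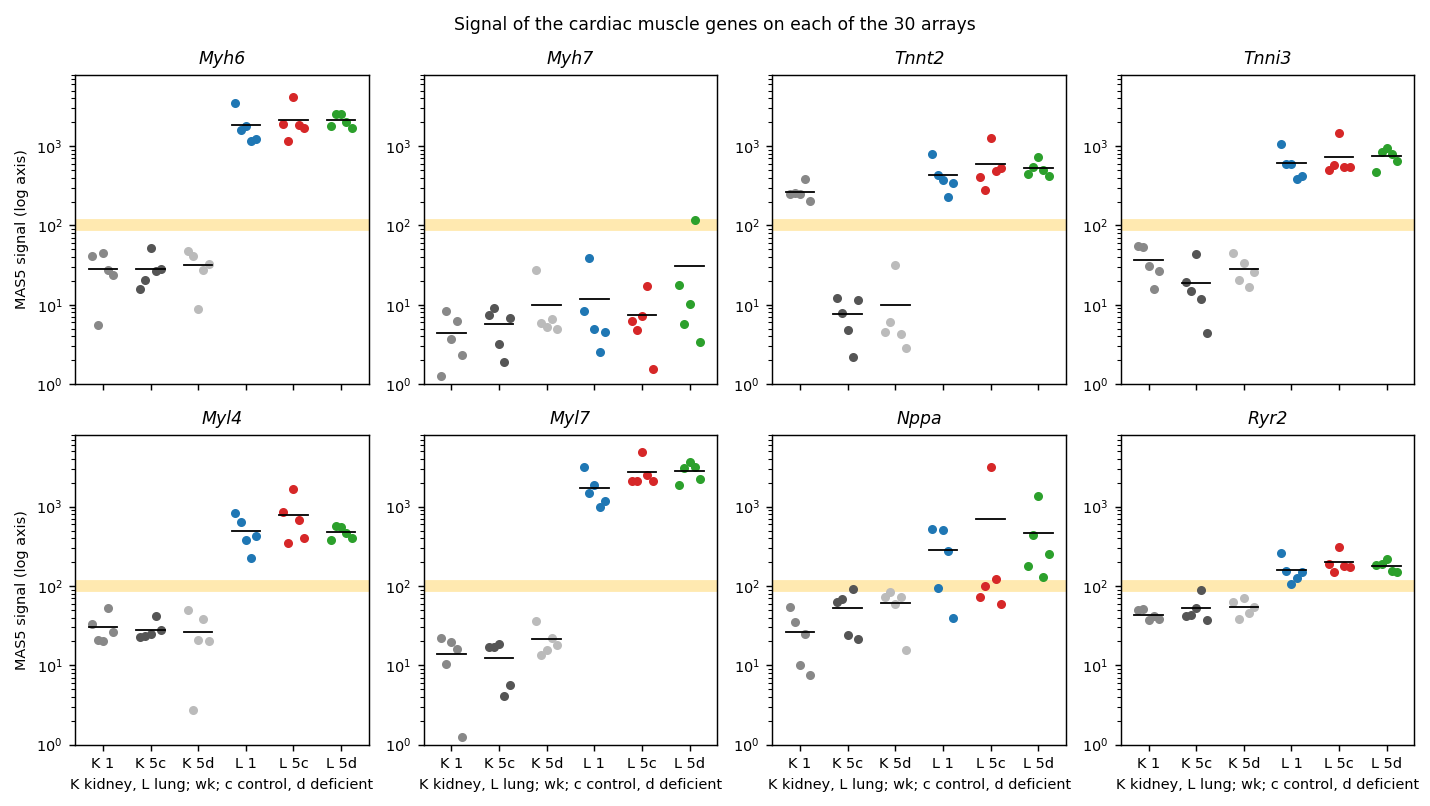
MAS5 signal (log axis) of the 8 measured genes on each of the 30 arrays. Points are single arrays of kidney (K) and lung (L) at 1 wk (1), in 5 wk controls (5c) and in 5 wk deficient rats (5d), black bars are group means, and the yellow band is the range of the arrays' 40th percentiles (87.0 to 116). The lung values of Myh6, Myl7, Myl4, Tnni3 and Tnnt2 lie above the band in all 15 lungs, Tnnt2 is also above it in the 1 wk kidneys, and Myh7 is below it in all but 1 lung.

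Set against kidney, the lung signal of Myh6, Myl7, Tnni3 and Myl4 was at least 4.21-fold higher at every age, and the bounds for Tnnt2 at 1 wk, Ryr2 and Nppa were smaller. These bounds use the kidneys' 40th percentile wherever the kidney was lower than that, and Myh7 has none. Myh6 was at least 15.8-fold higher in lung at 1 wk, 21.7-fold in controls and 21.2-fold in deficient rats. Myl7 was at least 14.8-, 28.4- and 27.6-fold higher in the same order, and Tnni3 at least 5.35-, 7.34- and 7.36-fold. Myl4 was at least 4.21-, 7.41- and 4.77-fold higher, and Ryr2 at least 1.40-, 2.15- and 1.79-fold. For these 5 genes every lung exceeded every kidney of the same group. Of all genes, 55.6% had no overlap between lung and kidney at 1 wk, 67.9% in controls and 63.9% in deficient rats. Among these 5 genes the largest adjusted p of limma (Benjamini-Hochberg over all genes) was 1.14e-07, for Ryr2 at 1 wk. They passed the filter through the lung arrays alone, so a difference was built in. Their p-values and lack of overlap support nothing further.

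Tnnt2 was above background in both tissues at 1 wk, with lung and kidney differing by 0.58 ± 0.31 on the log2 scale (SE, n = 5 per group, as in all fits here), which did not pass the test (limma adjusted p = 0.0982). Its 95% interval ran from -0.05 to 1.22, and without 1 wk lung 4, the lowest lung, the difference was 0.77 with an adjusted p of 0.0337. At 5 wk the Tnnt2 signal in lung was at least 5.75-fold higher in controls and 5.24-fold in deficient rats. Nppa was at least 1.81-fold higher in lung at 1 wk (limma adjusted p = 0.00605) and at least 3.26-fold in deficient rats (0.0106). In controls all 5 kidneys and 3 of 5 lungs were below the threshold for Nppa, 3 of 5 lungs were above every kidney, and the bound was at least 1.93-fold. The fitted difference, which rests on those background values, did not pass (limma adjusted p = 0.0524). With same-numbered kidney and lung taken as 1 animal it passed (adjusted p = 0.0415), and it also passed on leaving out control lung 1 (0.0325), control lung 2 (0.0444), control lung 5 (0.0261), control kidney 4 (0.0455), 1 wk lung 5 (0.0434) or deficient lung 3 (0.043).

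Of the 7 members tested across both tissues, 6 were called higher in lung at 1 wk, where 32.4% of all 11618 genes were called higher (67.1% in either direction). In controls 6 of 7 were called higher, against 44.7% of all genes (79.6% in either direction), and in deficient rats 7 of 7, against 42.7% (76.6% in either direction). Of these 7, all but Tnnt2 passed the filter through the lung arrays alone, so a difference was built into their selection. The counts, and the p-values of these members including Nppa, support nothing further.

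Tnnt2 was the member that changed with age in kidney. Its signal was at least 2.89-fold lower in control kidneys than in 1 wk kidneys, and the fitted log2 difference, -3.57 ± 0.23, depends on values below background (limma adjusted p = 2.37e-09). In kidney 71.9% of all 10910 genes tested were called with age, and Tnnt2, the single member tested there, passed the filter through the 1 wk kidneys alone, so it had to differ. The deficient kidneys were likewise at least 2.65-fold lower than the 1 wk kidneys (adjusted p = 4.74e-09; 65.6% of all genes called), a comparison that shares the 1 wk kidneys. Between deficient and control kidneys it was not called (0.05 ± 0.23, adjusted p = 0.909; 21.8% of all genes called), both groups being at background.

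The age difference of Tnnt2, control minus 1 wk, differed between the tissues. It was 0.37 in lung, which did not pass, and -3.57 in kidney on the log2 scale. Lung minus kidney was 3.94 ± 0.44 (limma adjusted p = 2.17e-08), a size that again rests on background values in kidney. Among the 7 members tested Tnnt2 was the only one called, while 53.8% of all genes were. The other 6 members were below the threshold on every kidney array, so their interaction values rest on background in kidney and give no size. Among them Myl7 and Tnni3 had adjusted p of 0.116 each. Without 1 wk lung 1 both passed (adjusted p = 0.0252 and 0.0403). Without 1 wk kidney 5 Myl7 passed (adjusted p = 0.0462), and without control kidney 3 Tnni3 passed (0.041), calls that turn on single kidneys at background. No member was called for a diet difference that differed between tissues (0 of 7; 7.48% of all genes called). Centring each array on its median moved the median of all genes in the age interaction from 0.11 to -0.16, in the control lung-kidney comparison from 0.10 to -0.12, and in the kidney age comparison from -0.07 to 0.20. The share of called genes that were higher went from 61.8% to 31.6%, from 56.1% to 43.3% and from 43.1% to 66.7% in the same order. The calls of members in these comparisons were the same in number and direction under that scaling.

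Within lung, the age comparison asked whether heart muscle genes differ between 1 wk lungs, when the organ is growing fast, and 5 wk control lungs. None of the 7 members tested passed (0 of 7), whereas 55.3% of all 10802 genes did. Among the 7 members the atrial light chains had the differences of largest size: 0.68 ± 0.30 for Myl7 (limma adjusted p = 0.0648) and 0.55 ± 0.37 for Myl4 (0.228), neither of which passed. Myh6 differed by 0.21 ± 0.31, Tnnt2 by 0.37 ± 0.34, Tnni3 by 0.20 ± 0.30 and Ryr2 by 0.33 ± 0.20, with adjusted p between 0.182 and 0.596. Nppa, at -0.12 ± 0.96, had a 95% interval from -2.17 to 1.93, so a change of several fold in either direction could not be seen. The median difference over the 7 members was 0.33, beside 0.00 over all genes, and the groups overlapped for every member (0 of 7 without overlap, against 41.3% of all genes).

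The count in the age comparison changed with 1 lung and with the fit. It was 1, for Myl7, with array weights (limma adjusted p = 0.0248) and with all 30 arrays in 1 fit (0.0387). Without 1 wk lung 1, Myl7 was 0.93 higher in controls (limma adjusted p = 0.00834) and Ryr2 0.51 higher (0.0216), so that 2 of 7 passed. With 1 wk lung 1 and control lung 3 both left out, 53.4% of all genes were called. This choice was made after seeing that these lungs were the highest for the same 7 members, so it lowers their spread by construction and its calls support nothing. The differences were then 0.70 for Myl7 (adjusted p = 0.0129) and 0.35 for Ryr2 (0.0323).

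The diet comparison set deficient against control lungs at the same age. No member passed (0 of 7; 11.8% of all genes did), and none had groups without overlap (10.2% of all genes). The difference, deficient minus control, was -0.50 ± 0.37 for Myl4 (95% interval -1.30 to 0.29, limma adjusted p = 0.42). Nppa was at 0.76 ± 0.96 (interval -1.29 to 2.81, adjusted p = 0.659). The other 5 lay between -0.13 for Ryr2 and 0.12 for Tnni3, and their intervals reached at most 0.77 in size. The median over the 7 was 0.08, beside 0.02 over all genes.

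Deficient lungs were also compared with the 1 wk lungs, which the age comparison shares. Myl7 was 0.77 ± 0.30 higher, or 1.70-fold, and was the 1 member of 7 to pass (limma adjusted p = 0.0449), where 26.9% of all genes were called higher and 49.5% in either direction. Its groups overlapped, as those of all 7 did (35.1% of all genes did not overlap). The call was lost on leaving out any of 11 lungs. These were 1 wk lungs 2 (adjusted p = 0.0793), 3 (0.0508), 4 (0.118) and 5 (0.106). They were also control lungs 1 (0.05), 2 (0.0501), 4 (0.0539) and 5 (0.0507), and deficient lungs 2 (0.0853), 3 (0.103) and 4 (0.087). The other 6 members ranged from 0.05 ± 0.37 for Myl4 to 0.64 ± 0.96 for Nppa, and the median over the 7 was 0.33 beside 0.02 over all genes. With 1 wk lung 1 and control lung 3 left out together, under the same limit, 5 of 7 passed and 49.9% of all genes did: besides Myl7 these were Myh6 (0.55, adjusted p = 0.0194), Tnnt2 (0.60, 0.0268), Tnni3 (0.55, 0.0209) and Ryr2 (0.38, 0.0174).

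**Figure D2:**
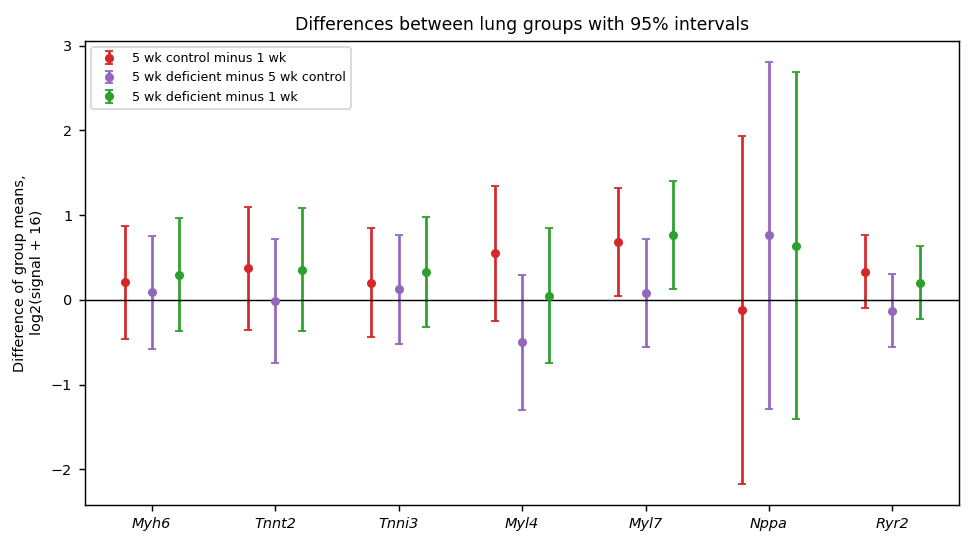
Differences between lung groups on the log2(signal + 16) scale for the 7 members tested, with 95% intervals from the limma fit, 5 lungs per group. All 7 diet intervals include 0, the 2 Myl7 intervals against the 1 wk lungs do not (adjusted p 0.0648 and 0.0449), and the intervals of Nppa are the widest.

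The spread between lungs of a group was larger for these genes than for most genes tested. The pooled SD within groups was 0.55 for Myh6, 0.60 for Tnnt2, 0.53 for Tnni3, 0.66 for Myl4 and 0.53 for Myl7 on the log2 scale, beside a median of 0.135 over the 10802 genes tested in lung. Among all genes these SDs stood between percentiles 98.6 and 99.2. Ryr2 had an SD of 0.35 (percentile 95.8) and Nppa one of 1.70 (percentile 99.98). For Nppa this includes 5 lungs below the threshold. In the deficient group alone the percentiles of the 7 members ran from 81.8 for Ryr2 through 87.0 for Myl4, 90.7 for Myh6, 92.6 for Tnnt2, 96.6 for Tnni3 and 96.9 for Myl7 to 99.8 for Nppa. Whether the spread differed between groups was not tested.

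The same lungs were high for gene after gene. Lung 1 was the highest of the 1 wk lungs in 7 of 7 members, where 25.7% of all genes had their highest value. Lung 3 was the highest of the control lungs in 7 of 7, against 23.1% of all genes. In the deficient group lung 3 was the highest in 5 of 7 (19.8% of all genes), and lung 2 in Myh6 and Myl4. Lung 4 was the lowest at 1 wk in 5 of 7 and lung 2 the lowest among controls in 4 of 7. No share of all genes stands beside these 2 counts, so nothing is read from them.

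Relative to the median of the other 4 lungs of its group, control lung 3 had 2.36 times the Myh6 signal, 2.82 times Tnnt2, 2.69 times Tnni3, 3.04 times Myl4, 2.29 times Myl7 and 1.78 times Ryr2. In 1 wk lung 1 the ratios were 2.44 for Myh6, 2.26 for Tnnt2, 2.10 for Tnni3, 2.06 for Myl4, 2.37 for Myl7, 1.87 for Ryr2 and at least 2.78 for Nppa. In deficient lung 3 they were 6.30 for Nppa and between 1.25 and 1.52 for the others. Members could also part ways within a lung: control lung 1 had a ratio of 1.60 for Myl4 and 0.81 for Tnnt2, and control lung 2 one of 0.45 for Myl4 and 1.07 for Tnni3.

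**Figure D3:**
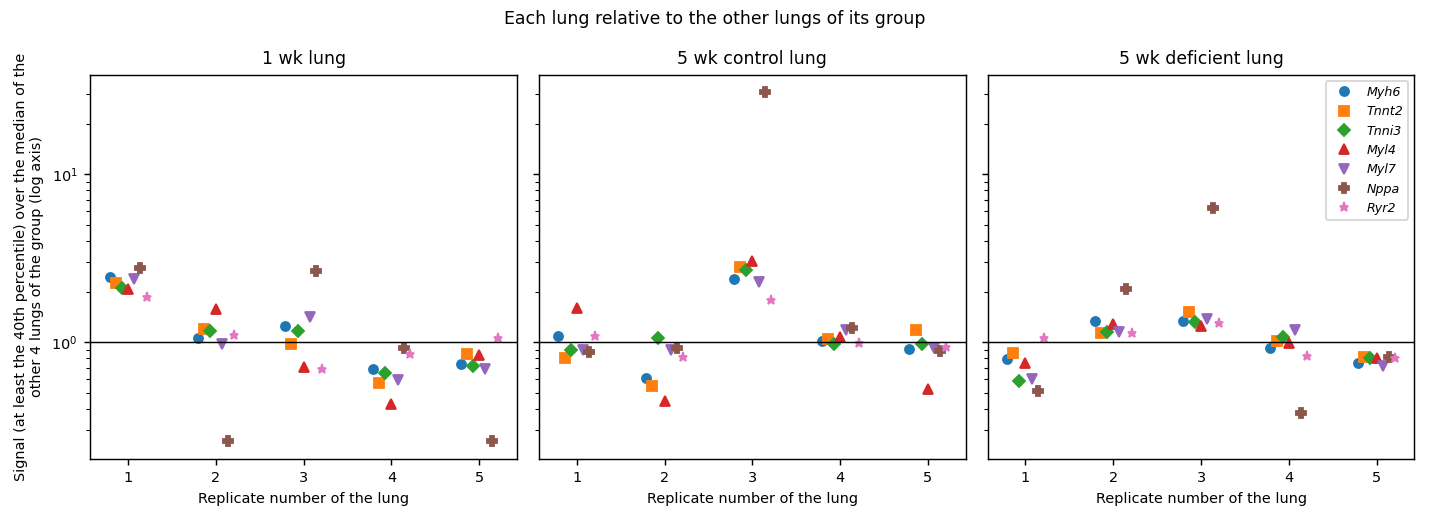
Signal of each lung divided by the median of the other 4 lungs of its group (log axis), for 7 genes, with replicate numbers on the x axis and a line at a ratio of 1. Signals below the array's 40th percentile, which occur for Nppa alone, were set to it. The 7 symbols of 1 wk lung 1 lie between 1.87 and 2.78, those of control lung 3 between 1.78 and 3.04 apart from Nppa at 30.8.

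Across the 15 lungs, the deviations of each member from its group mean were correlated with those of every other member, 21 pairs in all. These arrays share RNA preparation and scaling by lung, so a pair's values are not independent of technical differences between lungs. Pearson's r lay between 0.54 and 0.97 with a median of 0.81, and 19 of 21 pairs had a permutation p under 0.05 after Benjamini-Hochberg adjustment (adjusted p from 0.00042 to 0.0971). Spearman's rho lay between 0.29 and 0.93 with a median of 0.64, and 14 of 21 pairs passed (adjusted permutation p from 0.00189 to 0.349). Tnni3 and Myl7 were the closest pair (r = 0.97, rho = 0.93) and Myl4 and Nppa the loosest (r = 0.54, rho = 0.29).

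On leaving out, for each pair, the 2 lungs farthest from the median of the first gene, r fell to between 0.19 and 0.93 with a median of 0.59. Without 1 wk lung 1 and control lung 3 the median r over 13 lungs was 0.51, 19 of 21 pairs were above 0, and the lowest was -0.07. The size of the shared variation therefore rested in part on those 2 lungs. Each group holds 5 lungs, and the median r within a group was 0.78 at 1 wk, 0.92 in controls and 0.81 in deficient lungs.

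The 8 genes outside the members that were most like them were named by their correlation with the mean deviation of the 7 members over the 15 lungs. Deviations were not scaled by gene before this mean. Nppa had an SD of 1.70 beside 0.35 to 0.66 for the other members. It therefore weighs most in this mean and in every r with the members. Some of the Nppa values in it lie below the threshold. Tnnc1, the calcium-binding troponin C of heart and slow muscle, was first (r = 0.94, rho = 0.89, r = 0.80 without the 2 farthest lungs). Pln, which restrains the calcium pump of heart muscle, followed (0.93, 0.85 and 0.78 in the same order). Csrp3, a Z-disc protein, had 0.89, 0.75 and 0.63, and Sln, the atrial regulator of the calcium pump, 0.89, 0.88 and 0.74. Fabp4, a fatty acid binding protein of fat cells and capillary endothelium, had 0.87, 0.63 and 0.68. Gtf3c6 (0.92, 0.61 and 0.71), Entpd2 (0.90, 0.65 and 0.65) and Pigc (0.87, 0.57 and 0.45) completed the 8. Over all 10802 genes the median r was 0.01, and 6.83% had r above 0.5.

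Sln read 265, 286, 1036, 356 and 281 in the control lungs, and 334, 381, 224, 147 and 163 in the 1 wk lungs. Control lung 3 was again far above its group, while in the 1 wk group lung 2 was slightly above lung 1. In the deficient lungs Sln read 252, 345, 429, 344 and 266, highest in lung 3.

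Other genes of the heart muscle cell were taken as lists. Of the 13 tested genes of the list of other sarcomere and Z-disc genes, 12 had r above 0.5 with the members (median 0.75, beside 0.01 over all genes, and 0.53 without the 2 farthest lungs). Tpm1, a tropomyosin that smooth muscle shares, was the exception at -0.30. Control lung 3 was the highest control lung for 12 of these 13 genes, and 1 wk lung 1 the highest 1 wk lung for 9 of 13. The deficient group differed: lung 3, highest in 5 of 7 members, was the highest for 2 of these 13 genes, and lung 4 for 6, a lung that also had high skeletal muscle markers. Of 12 tested calcium handling and channel genes, 5 had r above 0.5 (median 0.40, and 0.15 without the 2 farthest lungs), and of 13 genes of muscle energy supply, 8 (median 0.54, and 0.24 without them). Of the 4 tested genes of the list of cardiac transcription and secreted factors none did (0 of 4, highest 0.46), where 6.83% of all genes did.

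With age these lists went in several directions. Of the 13 sarcomere and Z-disc genes, 4 rose, 2 fell and 7 did not pass (28.5% of all genes rose and 26.9% fell), and the median difference was 0.02. Tcap, a Z-disc cap of titin, rose by 2.20 ± 0.17 on the log2 scale (limma adjusted p = 5.4e-08), and the stress-responsive muscle protein Ankrd1 rose by 1.31 ± 0.23 (0.000152). Myoz2, a Z-disc binding partner of calcineurin, rose by 0.79 ± 0.24 (0.0101), and Tpm1 fell by 0.48 on the log2 scale (5.32e-06).

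Calcium handling and channel genes had 1 rise, 5 falls and 6 that did not pass among 12. The sodium-calcium exchanger Slc8a1 (-0.63 ± 0.06), the L-type calcium channel Cacna1c (-0.55 ± 0.09) and the connexin Gja5 (-0.41 ± 0.06) fell, and the potassium channel Kcnq1 (0.42 ± 0.08) rose. Of the 13 muscle energy genes, 7 rose, 1 fell and 5 did not pass, with a median of 0.72, beside 28.5% of all genes that rose. The mitochondrial creatine kinase Ckmt2 (2.01 ± 0.25) and the cytochrome oxidase subunits Cox8b (1.43 ± 0.20) and Cox7a1 (0.99 ± 0.15) rose, as did the coactivator Ppargc1a (0.65 ± 0.08). Fat and other lung cells express several genes of this list too.

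Of the 4 tested genes of the list of cardiac transcription and secreted factors, 1 rose and 2 fell. The rise was that of Popdc2 (1.23 ± 0.07), a membrane protein of striated muscle and so not itself such a factor. Tbx5, a factor of the atria that lung mesenchyme also expresses, fell by 1.11 on the log2 scale. Gata6 fell by 0.32 on the log2 scale, and Mef2c was at -0.00 ± 0.28. Mef2c was also above background in every kidney and Gata6 in every 1 wk kidney. Their r with the members was -0.04 for Mef2c and 0.16 for Gata6. In the diet comparison none of the 13 sarcomere genes (0 of 13) or of the 13 energy genes (0 of 13) passed. Of the calcium and channel genes 2 of 12 did, and of the genes on the factor list 2 of 4. Of all genes 6.22% were higher and 5.57% lower. Kcnq1 was lower in deficient lungs (-0.32 ± 0.08, limma adjusted p = 0.0149), as was Popdc2 (-0.35 ± 0.07, 0.0033), and Jph2, a junction protein of the calcium release unit (0.30 ± 0.09, 0.0413), and Tbx5 (0.29 ± 0.08, 0.0336) were higher.

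Chamber markers were read next. Myl2, the ventricular partner of Myl7, was at 2.74, 7.05, 7.32, 22.3 and 5.05 in the control lungs, so lung 3, where Myl7 reached 4831, had no Myl2 signal above background. In the 1 wk lungs Myl2 was 190.0, 85.1, 34.5, 33.4 and 84.1, with lung 1 the one lung above the threshold. In the deficient lungs it was 7.59, 2.47, 17.2, 297 and 11.6, with lung 4 above it. Myl2 is also the light chain of slow skeletal fibres. Of the 6 genes listed as ventricular markers, Hey2 alone passed the filter in lung, and it was also above background in every kidney. Nppb, the other natriuretic peptide, was above background in control lung 3 (217) and deficient lung 3 (113). It was below background in the other 13 lungs (1.22 to 70.5). Those lungs numbered 3 were also the highest of their groups for Nppa, so Nppb is not read here as a sign of ventricle. Of the 9 measured atrial markers outside the members, 7 were tested. Among them Sln, Gja5 and Kcnj5 also stand in the calcium handling and channel list, and Tbx5 in the factor list. These genes are therefore counted in both places. Nr2f2, Dkk3, Tbx5 and Gja5 of the atrial list are also expressed by lung vessels or mesenchyme. Stard10 of that list had a higher mean in kidney than in lung in every group (2715 against 1281 in controls). Its r with the members was 0.08. With age 1 of the 7 tested atrial markers, Stard10, rose and 4 fell. Their median r with the members was 0.33, and 0.06 without the 2 farthest lungs. Sln and Kcnj5 had r above 0.5 (2 of 7, where 6.83% of all genes did). Without those lungs Sln was at 0.74 and Kcnj5 at -0.09.

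Skeletal muscle markers had their high values in 1 lung of the 1 wk group and 1 of the deficient group. Acta1, the skeletal actin, read 740.4, 4482, 337, 265 and 374 in the 1 wk lungs and 226, 217, 193, 3898 and 277 in the deficient lungs. Myl1, a light chain of fast fibres, read 62.1, 2221, 25.3, 76.7 and 37.4 and 53.3, 61.3, 42.1, 1735 and 59.8 in the same groups. Lung 2 at 1 wk and deficient lung 4 stood far above the others for both. These are the lungs with the highest Myh7 signal, which in 1 wk lung 2 was still below background. The summed signal of the 22 measured markers was 15283 in 1 wk lung 2 against a lowest of 3311 and a median of 3712 in its group. Much of the baseline of this sum was Myh1, which was the lowest of its group in 1 wk lung 2 (1841) and the highest among deficient lungs in lung 1 (3406), and which read 4811 or more in every kidney. Without Myh1 the sum was 13442 in 1 wk lung 2 and 1147 to 1977 in the other 1 wk lungs, and 10169.9 in deficient lung 4 and 1121 to 1261 in the other deficient lungs. With Myh1, in deficient lung 4 it was 12957 against a lowest of 3451 and a median of 3944, and the control lungs ranged from 3350 to 4587. None of the 5 skeletal markers tested had r above 0.5 with the members (0 of 5), where 6.83% of all genes did. The rest of the 22, Myl1 among them, did not pass the filter, so this count says little about skeletal muscle. Without 1 wk lung 2 and deficient lung 4, the Myl7 difference between deficient and 1 wk lungs was 0.69 (limma adjusted p = 0.136), and its part in that call was not tested further.

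Fat markers were highest in several of the lungs where the members were highest. Ucp1, the heat-producing uncoupler of brown fat, read 678, 315, 727, 165 and 659 in the 1 wk lungs and 31.3, 154, 1213, 70.9 and 28.7 in the control lungs. In the deficient lungs it read 281, 646, 1257, 112 and 405. Lung 3 was the highest in both 5 wk groups, as for Myl7, whereas at 1 wk lung 3 was slightly above lung 1. Cidea, another brown fat gene, read 367, 317, 1331, 239 and 288 in the control lungs, and 1007 in 1 wk lung 1 against 290.0 to 548 in the other 1 wk lungs.

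All 6 fat markers tested had r above 0.5 with the members (6 of 6, median 0.80, and 0.52 without the 2 farthest lungs). The summed signal of the 8 measured fat markers ranged from 884 to 2639 in the 1 wk lungs, from 782 to 4195 in controls and from 1234 to 3832 in deficient lungs, and Lep and Elovl3 were below the threshold in all of them. Control lung 3 was the highest of its group for 6 of 6 and 1 wk lung 1 for 4 of 6. The kidneys also carried these markers, with sums from 1149 to 5891 at 1 wk, while their members other than Tnnt2 were at background. The part of fat tissue in the spread of the members was not tested.

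**Figure D4:**
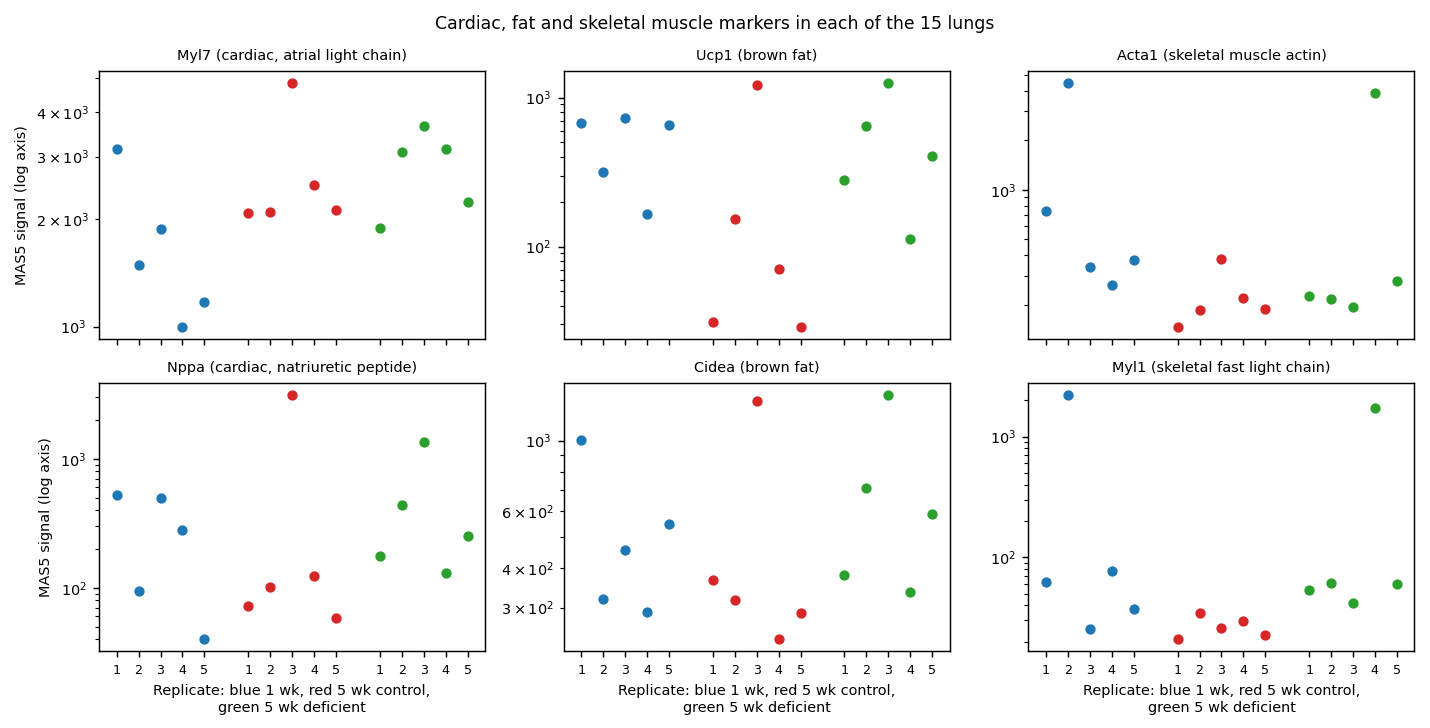
MAS5 signal (log axis, a separate range in each panel) of 2 members (Myl7, Nppa), 2 brown fat genes (Ucp1, Cidea) and 2 skeletal muscle genes (Acta1, Myl1) in each of the 15 lungs, ordered by group and replicate number. Control lung 3 is highest in its group for Myl7, Nppa, Ucp1 and Cidea, whereas 1 wk lung 2 and deficient lung 4 are the high lungs for Acta1 and Myl1.

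Markers of other cell types present in a lung were read the same way. Smooth muscle sums lay between 26787 and 28744 at 1 wk and between 15481 and 18193 in controls, and 2 of 10 tested genes had r above 0.5 with the members. With age 9 of the 10 fell, among them Myocd (-2.04 ± 0.14) and Acta2 (-1.06 ± 0.14). Of 11 lung epithelial markers 1 had r above 0.5, of 7 red cell markers none (0 of 7), and of 3 tested thymus markers none (0 of 3). Of all genes 6.83% had such an r, so counts of 0 in short lists say little. The correlations furthest below 0 in these lists were those of Aqp5, the water channel of flat alveolar cells, and Tcf7, a T cell factor (both -0.71). Sums of lung epithelial markers ranged from 79003 to 116820, and those of red cell markers from 21701 to 33897.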

How the data were processed

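The 30 arrays were one-colour oligonucleotide arrays with biotin-labelled target from 2 ug of total RNA, per the labels' protocols. The deposited values are MAS5 signal intensities on a linear scale, computed by the authors per the submitters' processing notes, which give no version. The mean over probe sets, with 2% trimmed at each end and controls left out, was 498.37 to 499.05 on every array, so the values were already scaled and were not normalized again. MAS5 subtracts mismatch signal, which leaves low values noisy. Of 31099 probe sets, 57 were controls, 20826 named 1 gene, 436 several and 9780 none.

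Signals were taken as log2(signal + 16), with the probe set of highest mean signal standing for its gene. Log2 differences are on this scale and understate changes of low genes. The filter kept genes at or above the 40th percentile of an array on 5 or more arrays (10802 genes in lung, 10910 in kidney, 11618 over the 30 arrays). Linear models with moderated variances came from limma 3.58.1 under R 4.3.3, on 15 arrays within a tissue and on 30 between tissues, with Benjamini-Hochberg adjustment over all genes tested and calls at 0.05. P-values rest on the spread between samples within groups, pooled over all groups of a fit and moderated over genes. Leaving out an array of a group that is not compared can therefore change a call. The labels call the 5 samples of a group biological replicates, and precision is limited by their number. "At least" folds set the geometric mean of the higher group against the mean of, per array, the larger of the signal and the 40th percentile in the lower group. Correlations between members were tested by 100000 permutations within groups, and the fits were tested on simulated data. Figures were drawn with matplotlib 3.10.9.

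Same-numbered kidney and lung deviated together in controls (correlations 0.115 to 0.225) and deficient rats (0.144 to 0.261), but not throughout at 1 wk (-0.015 to 0.163, with 3 of 5 over 0.1). The labels do not say that they came from 1 rat, and the pairing at 5 wk is read from these correlations. The lung groups shared no pairing (-0.130 to 0.132).

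The members, marker lists and tests were chosen with earlier results of these data known. The text names all 9 members, up to 4 genes per list with the smallest adjusted p in the comparison described, and the 8 genes most like the members. Of the genes named beside them, Myl2, Nppb, Myl1, Cidea, Acta1, Ucp1, Lep, Elovl3, Slc34a1 and Wt1 were taken from the lists after their values were seen. Gene positions and promoters are RefSeq GRCr8, where all 9 symbols matched. The design text names mice, but title and sample labels name the rat, which was taken as correct.

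Alternatives were other values added before log2 (1 and 64), no filter and the 60th percentile, quantile normalization, median centring, means of probe sets and all probe sets, a trended robust variance, array weights, other sets of arrays, replicate blocks, and each array left out. Leaving out 2 pairs of lungs was added after seeing the data.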

Additional observations from a re-analysis of the deposited data

Results flagged for a closer look

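In groups of 5 arrays, a sample was marked when its gap to the nearest other sample exceeded 0.71 of the group's range on the log2(signal + 16) scale. Chance gives this in about 1 in 20 groups, but the groups here share arrays and are not independent. The values below are linear signals. This held in 8 of 48 groups of members. Control lung 3 stood above its group for Tnni3 (1470.1), Myl7 (4831) and Nppa (3127). Myh7 had a single high value in 1 wk lung 2 (38.8), in deficient lung 4 (116) and in deficient kidney 1 (27.2), the first and the last of them below background. Tnnt2 in deficient kidney 3 (32.0) and Nppa in deficient kidney 5, the lowest of its group (15.5), were also below background. For Tnnt2 the age difference, control minus 1 wk, was 0.37 in lung, which did not pass, and -3.57 in kidney on the log2 scale. Lung minus kidney was 3.94, by the test of that difference itself, and the control kidney values under it were below background.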

How the results depend on the processing

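Counts here are members called. In the deficient minus 1 wk lung comparison (1 called) none was called without the filter (0) or with a trended and robust variance (0), the count ranged from 0 to 1 over the left-out lungs, and it was 5 without 1 wk lung 1 and control lung 3 and 0 without 1 wk lung 2 and deficient lung 4. In the control minus 1 wk lung comparison (0 called) it was 1 with array weights, 1 with all 30 arrays in 1 fit, 0 to 2 over the left-out lungs and 2 without 1 wk lung 1 and control lung 3. The kidney calls of Tnnt2 against 1 wk (1 each) became 0 and 0 at the 60th percentile, since it was then not tested. The age interaction ranged from 1 to 3 over left-out arrays. The median correlation between members was 0.51 without 1 wk lung 1 and control lung 3, and 0.71 to 0.86 over single left-out lungs. The cause of the other changes was not tested. With the replicate number as a block the lung comparisons called 0, 0 and 1 members in the order age, diet and deficient against 1 wk, as without it. With same-numbered kidney and lung as a block, the lung minus kidney comparisons called 6, 7 and 7, and no other member call changed. Of 2208 values of members under alternatives over all 11 comparisons, 2171 kept their side of the threshold and direction, 14 lost the call, 23 gained it and 0 reversed, and 52 values that did not pass changed sign. Signals below the 40th percentile, which include Myh7 in lung and nearly all members in kidney, give only bounds.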
